A study of Mus musculus with 32 samples.

Results

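Sfrp4 encodes secreted frizzled-related protein 4. The values below are those of the one probe that could be named Sfrp4 (probe 381109), out of 33012 noncontrol probes on each array. The probe was chosen by its signal and its signal-to-noise ratio (S/N) in all 8 groups, which were already known, so its levels are given as a description and no test was run on them. Proteins of this family carry a cysteine-rich domain like that of the Frizzled receptors, bind Wnt ligands outside the cell and so limit their access to the receptors. Wnt ligands that do reach Frizzled and LRP receptors stabilize β-catenin, which acts on target genes in the nucleus. Sfrp4 is best known from connective tissue, bone and adipose tissue rather than from macrophages.

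The 32 arrays came from bone marrow cells of 8 C57Bl/6 mice that all carried LysCre, a Cre recombinase under the lysozyme promoter of myeloid cells. Mice 1 to 4 were Pparg+/- LysCre and keep 1 intact Pparg allele, and mice 5 to 8 were Pparg fl/- LysCre, in which Cre deletes the loxP-flanked allele in myeloid cells. Cells of each mouse became macrophages with 20 ng/ml M-CSF or immature dendritic cells (iDCs) with 20 ng/ml GM-CSF, and all cultures received 20 ng/ml IL-4. Each culture was given vehicle (dimethyl-sulfoxide and ethanol) or 1 μM of the PPARγ agonist rosiglitazone (RSG), and the labels give 9 days of culture. Each of the 8 groups therefore held 4 mice, and arrays with the same number came from the same mouse. The arrays were of the single-color Applied Biosystems type, which give a chemiluminescent signal per probe. Detection required an S/N of 3 or more, and 13595 to 16683 probes were detected per array. Sfrp4 had an S/N of 1 or less on 14 of the 32 arrays, and on all 14 the listed signal was the spot's own standard deviation, which is noise and not a measured level.

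Pparg and its known target genes were not analysed here, since none of the 32 target genes listed had a named probe, and of 151 listed cell type markers only Ear1 and Hba-a1 had one. The cell type and genotype labels could therefore not be checked against their defining genes. The macrophage cultures of mouse 5 stood apart from those of the other Pparg fl/- LysCre mice. Ear1, an eosinophil-associated ribonuclease, had a signal of 146697 in vehicle-treated macrophages of mouse 5, against 23052 to 38327 in mice 6, 7 and 8 and 173254 to 226327 in the Pparg+/- LysCre mice. Hba-a1 is the α-globin gene and the 1 of 14 erythroid markers with a named probe. Its signal was 354 in the same culture of mouse 5, against 4774 to 7355 in mice 6, 7 and 8. In the Pparg+/- LysCre mice it was 203 to 306. Genotype differences are therefore given with and without mouse 5.

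Sfrp4 was detected on all 4 arrays of vehicle-treated Pparg+/- LysCre macrophages and on 3 of the 28 other arrays. Its signal in those vehicle-treated macrophages was 4850 in mouse 1, 3438 in mouse 2, 852 in mouse 3 and 1766 in mouse 4, with S/N values of 37.6, 39.9, 8.59 and 11.6. All 4 values were clearly above the noise, and the probe lay at the 64.9th to 81.2nd percentile of all probes on these arrays. On the log2 scale after quantile normalization the level was 11.22 ± 1.10 (SD, n = 4). The mice differed among themselves by 5.69-fold between the highest and the lowest signal. Of 1941 probes detected on these 4 arrays within 0.5 (log2) of the Sfrp4 level, 18 had a larger SD than Sfrp4, and the median SD was 0.195. The 2 higher mice were read on one scan day and the lower pair on another, so the mouse and the scan day cannot be told apart in this spread.

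**Figure D1:**
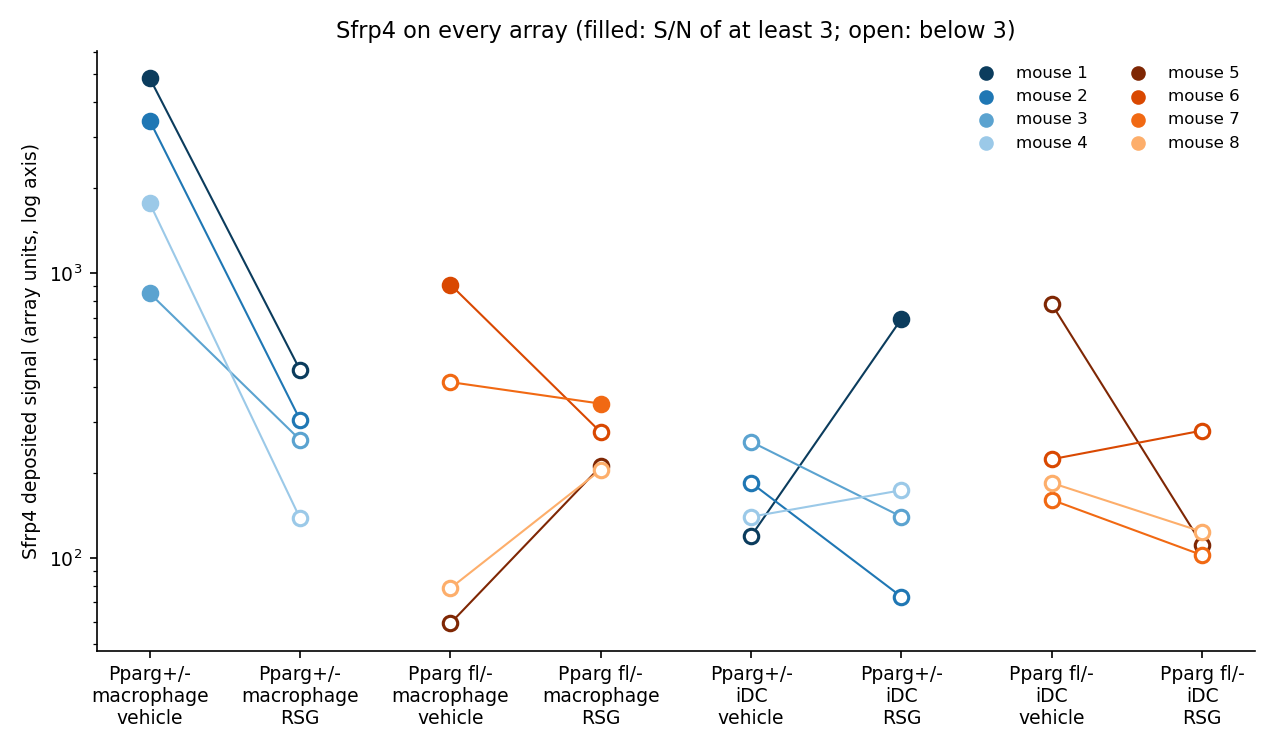
Deposited Sfrp4 signal (array units, log axis) on each of the 32 arrays, by genotype, cell type and treatment. Lines join vehicle and RSG cultures of a mouse, and filled points have an S/N of at least 3. The 4 vehicle-treated Pparg+/- LysCre macrophage cultures (852 to 4850) were the one group with Sfrp4 detected in every mouse.

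RSG was compared with vehicle in the same mouse to ask how the PPARγ agonist bears on Sfrp4. In RSG-treated Pparg+/- LysCre macrophages the Sfrp4 signal was 458 in mouse 1, 307 in mouse 2, 261 in mouse 3 and 138 in mouse 4. None of these arrays reached the detection threshold, with S/N values of 0.52 to 2.41, and the highest of them lay below the lowest vehicle array. The level was 8.04 ± 0.63 (log2, SD, n = 4), and the difference from vehicle within each mouse was -3.18 ± 0.83. The values of vehicle-treated cells were 9.06-fold higher, but the probe was below the threshold on every RSG array. The size of this difference therefore rests on undetected values and is not a lower limit. The Sfrp4 value was lower with RSG in 4 of 4 mice. The ratios were 14.6-fold in mouse 1, 10.8-fold in mouse 2, 3.94-fold in mouse 3 and 10.8-fold in mouse 4, each over an undetected RSG value. The difference was present on both scan days of this genotype, at -3.66 (log2) for mice 1 and 2 and -2.70 for mice 3 and 4. In these bulk cultures, fewer cells with the transcript and less transcript per cell cannot be told apart. Ear1, the 1 of 17 mast cell, basophil and eosinophil markers with a named probe, differed the other way in the same mice, with signals of 173254 to 226327 with vehicle and 499084 to 660087 with RSG. Hba-a1 was detected on none of these 8 arrays. The part of the Ear1 difference in the Sfrp4 result was not tested.

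Over the 16620 probes detected on at least 3 arrays of some group, the median RSG minus vehicle value in Pparg+/- LysCre macrophages was -0.03 (log2). Sfrp4 was among these probes through its vehicle-treated Pparg+/- LysCre macrophage arrays alone. Of the 12691 probes detected on all 4 vehicle arrays of these macrophages, 48 were detected on none of the 4 RSG arrays. Of those 48, 6 were also detected on at most 1 array of each other group, Sfrp4 among them by its choice, and the other 5 have no gene symbol here. Fewer probes were detected on the RSG arrays of these cells (13830 to 15250) than on the vehicle arrays (15144 to 15918, with overlap), and the part of this in the Sfrp4 result was not tested.

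Pparg fl/- LysCre macrophages did not show this pattern of values, and the difference in RSG response between the genotypes was not tested. With vehicle, the Sfrp4 signal was 59.1 in mouse 5, 914 in mouse 6, 415 in mouse 7 and 78.5 in mouse 8, and with RSG it was 210, 277, 349 and 204. Sfrp4 was detected on 1 of 4 arrays with vehicle (mouse 6, S/N 6.13) and on 1 of 4 with RSG (mouse 7, S/N 3.85), while mouse 7 with vehicle lay just below the threshold at 2.95. The signal was lower with RSG in mice 6 and 7 and higher in mice 5 and 8, whose vehicle values were noise. The within-mouse difference was 0.25 ± 1.09 (log2, SD, n = 4), smaller than its spread. It was -0.12 without mouse 5 and ran up to 0.65 without mouse 6.

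**Figure D2:**
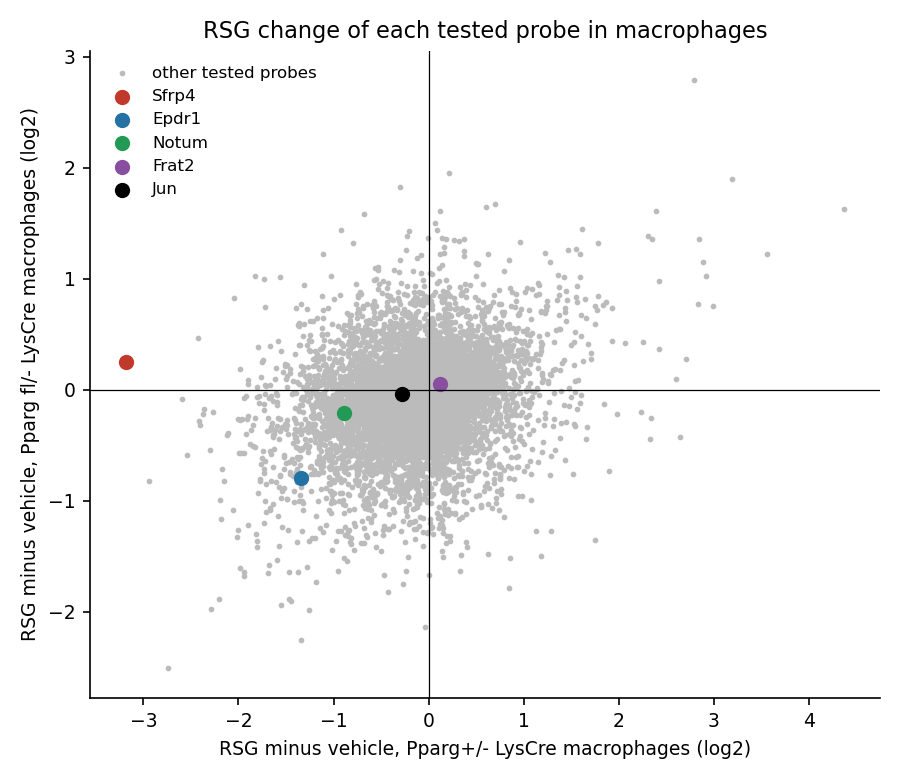
RSG minus vehicle difference (log2) of each of the 16620 tested probes in Pparg+/- LysCre macrophages (horizontal) and in Pparg fl/- LysCre macrophages (vertical), from different mice. Marked are Sfrp4, its genomic neighbour Epdr1 and the 3 Wnt genes with a named probe. Sfrp4, placed here by the values that chose it, lies at -3.18 and 0.25, and both values rest in part or whole on arrays that did not detect it.

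The genotypes were compared in cells of the same type and treatment to ask what loss of Pparg does to Sfrp4 without added ligand. In vehicle-treated macrophages the Sfrp4 level was 7.74 ± 1.67 (log2, SD, n = 4) in Pparg fl/- LysCre cells, a difference of -3.48 from Pparg+/- LysCre cells. Sfrp4 was detected in 1 of these 4 Pparg fl/- LysCre mice, so the size of the difference rests on values near background. The groups did not overlap after normalization, but before it the highest Pparg fl/- LysCre signal (914 in mouse 6) was above the lowest Pparg+/- LysCre signal (852 in mouse 3). Without mouse 5, which had the lowest value of its group, the difference was -2.91 (log2), and it was -4.06 without mouse 6. Taking only arrays on which Sfrp4 was detected leaves mouse 6 against all 4 Pparg+/- LysCre mice and a difference of -1.74.

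Each scan day held 2 mice of 1 genotype, so genotype and scan day cannot be told apart fully for Sfrp4. Hba-a1 moved the other way between these groups, with 0 of 4 arrays detected in vehicle-treated Pparg+/- LysCre macrophages and 3 of 4 in Pparg fl/- LysCre macrophages. The array without detected Hba-a1 in the latter group was that of mouse 5 (S/N 2.87). Ear1 was lower in vehicle-treated Pparg fl/- LysCre macrophages, at 15.42 ± 1.22, than in those of Pparg+/- LysCre, at 17.54 ± 0.14 (log2, SD, n = 4 each). The part of Hba-a1 and Ear1 in the Sfrp4 difference was not tested. With RSG the macrophages of both genotypes were near the same Sfrp4 level, 7.99 ± 0.59 in Pparg fl/- LysCre and 8.04 ± 0.63 in Pparg+/- LysCre cells (log2, SD, n = 4 each). That difference of -0.05 was within the spread, and without mouse 5 it was 0.14.

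The iDCs held little or no measurable Sfrp4. In vehicle-treated Pparg+/- LysCre iDCs the signal was 120, 184, 257 and 140 in mice 1 to 4, with no S/N above 1.37. With RSG it was 692, 73.3, 140 and 173. Mouse 1 with RSG was the single iDC array of the 16 with Sfrp4 detected, at an S/N of 5.30. The within-mouse RSG difference in these iDCs was 0.27 ± 1.80 (log2, SD, n = 4), and it ran from -0.56 without mouse 1 to 0.82 without mouse 2.

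In Pparg fl/- LysCre iDCs the signal was 780, 223, 160 and 184 in mice 5 to 8 with vehicle and 112, 281, 103 and 124 with RSG. The value of 780 in mouse 5 came with an S/N of 1.72 and was therefore not detected. The within-mouse RSG difference was -0.65 ± 0.95 (log2, SD, n = 4) and ran from -0.97 without mouse 6 to -0.24 without mouse 5. Between genotypes, Sfrp4 in iDCs differed by 0.38 with vehicle and -0.54 with RSG (log2, Pparg fl/- LysCre minus Pparg+/- LysCre), and both values were within the spread between mice. Without mouse 5 they were -0.01 and -0.52. The RSG value turned to 0.12 without mouse 1, the one detected array, and was -1.07 without mouse 2.

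The cell types were compared within each mouse. In vehicle-treated Pparg+/- LysCre cells the Sfrp4 difference of iDCs from macrophages was -3.85 ± 1.46 (log2, SD, n = 4). The values of macrophages were 14.5-fold higher, or 9.46-fold without mouse 1. No iDC array detected Sfrp4, so the size of this difference rests on undetected values and is not a lower limit. Macrophages had the higher value in 4 of 4 mice. The ratios ran from 4.72-fold in mouse 3 to 51.8-fold in mouse 1, each over an undetected iDC value. The other comparisons of iDCs with macrophages were small beside their spread or rested on undetected values. They were -0.40 ± 1.39 in RSG-treated Pparg+/- LysCre cells, 0.01 ± 2.33 in vehicle-treated and -0.89 ± 0.46 in RSG-treated Pparg fl/- LysCre cells (log2, SD, n = 4 each). The last was below 0 in 4 of 4 mice, but Sfrp4 was detected on 1 of these 8 arrays. In RSG-treated Pparg+/- LysCre cells the value ran from -0.85 without mouse 1 to 0.18 without mouse 2. In vehicle-treated Pparg fl/- LysCre cells it ran from -0.96 without mouse 5 to 0.71 without mouse 6. With RSG it ran there from -1.07 without mouse 5 to -0.70 without mouse 7. Between vehicle-treated Pparg+/- LysCre macrophages and iDCs these markers differed as well. Ear1 had signals of 14640 to 62550 in the iDCs, Hba-a1 was detected on 3 of 4 iDC arrays and on 0 of 4 macrophage arrays, and their part was not tested. Macrophages and iDCs differ here in the growth factor as well, M-CSF or GM-CSF, and the cell type and the growth factor cannot be told apart.

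**Figure D3:**
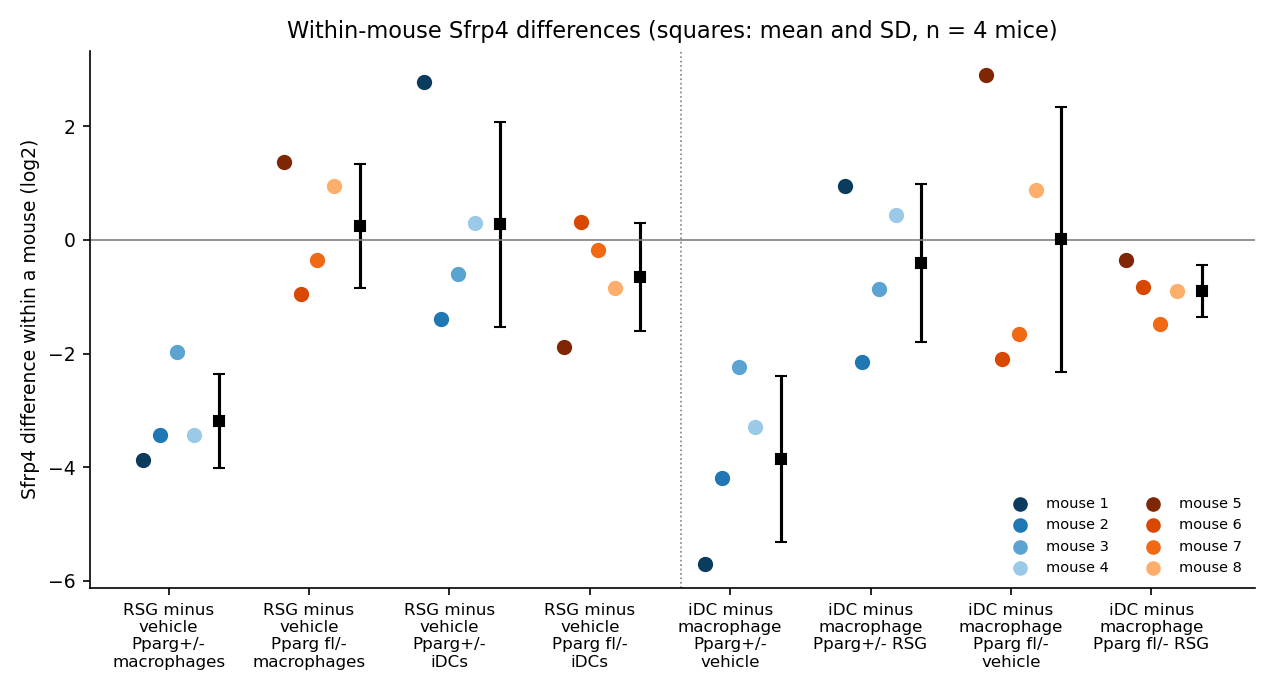
Within-mouse Sfrp4 differences (log2) of RSG minus vehicle (left of the dotted line) and of iDC minus macrophage (right), a point per mouse, with squares and bars for the mean and SD of 4 mice. All 4 mice lie below 0 for RSG in Pparg+/- LysCre macrophages (-3.87 to -1.98), for vehicle-treated Pparg+/- LysCre cells compared by cell type (-5.70 to -2.24) and for RSG-treated Pparg fl/- LysCre cells compared by cell type (-1.48 to -0.36).

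Ordered by mean log2 level, vehicle-treated Pparg+/- LysCre macrophages stood first at 11.22, followed by RSG-treated Pparg+/- LysCre macrophages at 8.04. The gap of 3.18 between them is set by the values that chose the probe and stands beside a pooled SD of 0.89. The 6 groups after these were RSG-treated Pparg fl/- LysCre macrophages (7.99), vehicle-treated Pparg fl/- LysCre iDCs (7.75), vehicle-treated Pparg fl/- LysCre macrophages (7.74), RSG-treated Pparg+/- LysCre iDCs (7.64), vehicle-treated Pparg+/- LysCre iDCs (7.36) and RSG-treated Pparg fl/- LysCre iDCs (7.09). From the second place on, the gaps to the next group were 0.01 to 0.27, beside pooled SDs of 0.42 to 1.58 for the pairs. In each of these 7 groups at most 1 array detected Sfrp4, so neither an order nor a lack of difference is read among them.

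The probes whose levels were most like those of Sfrp4 over the 32 arrays were sought among the other 16619 tested probes by Pearson's r, as a description, since the arrays share mice, scan days and normalization. The median r was 0.02, and 4 probes had an r of at least 0.8. The 2 without a gene symbol and with the highest r were mCG127219.1 (r = 0.88) and mCG1436.1 (r = 0.83), which are listed by gene model numbers. After the group means were taken out, r was 0.85 and 0.74, and over the 28 arrays without vehicle-treated Pparg+/- LysCre macrophages it was 0.76 and 0.67. Sfrp4 was detected on 3 of those 28 arrays, so these r rest mostly on values that were not detected, and the probes were picked for a high r.

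On the arrays that detected Sfrp4, the values of these probes can be set beside it. The probes were picked for a high r over these same arrays, so matches follow in part from the pick. In vehicle-treated Pparg+/- LysCre macrophages the signal of mCG127219.1 was 3000, 2698, 567 and 1356 in mice 1 to 4, and that of mCG1436.1 was 2939, 5742, 914 and 1506. Mice 1 and 2 were above mice 3 and 4 for both, as for Sfrp4. In vehicle-treated Pparg fl/- LysCre macrophages mouse 6 was the highest for both (1894 and 2358), as it was for Sfrp4. In RSG-treated Pparg+/- LysCre iDCs mouse 1 was the one array with either detected (1401 and 2208), and again the one with Sfrp4 detected. In RSG-treated Pparg fl/- LysCre macrophages of mouse 7, the remaining array with Sfrp4 detected, neither probe was detected (244 and 147, S/N -0.28 and 0.28). With RSG in Pparg+/- LysCre macrophages, mCG127219.1 was detected in 2 mice and mCG1436.1 in 3 mice, whereas Sfrp4 was detected in none.

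**Figure D4:**
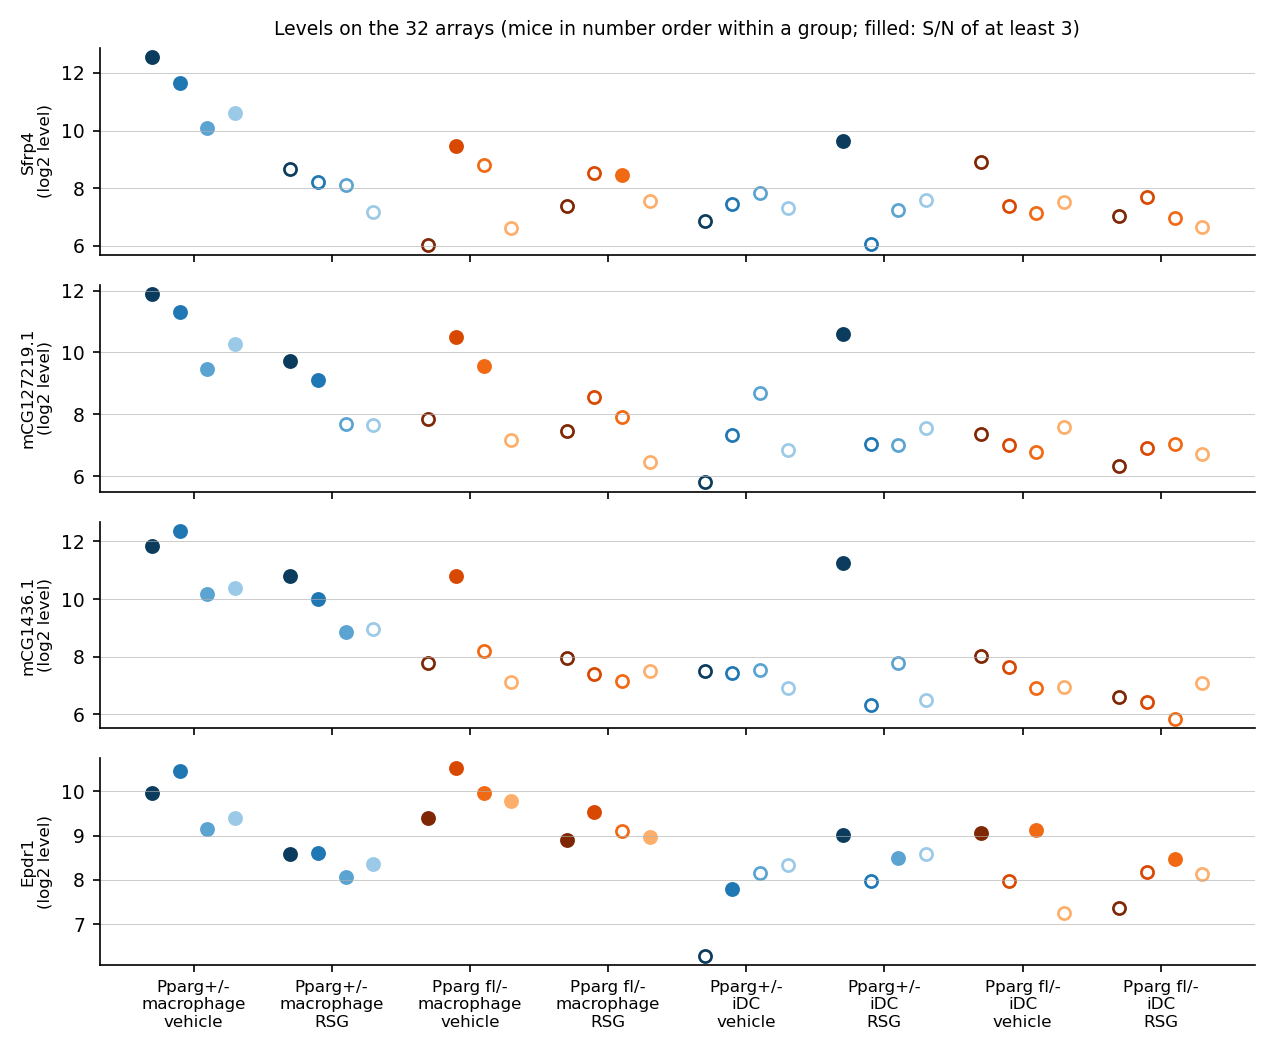
Quantile-normalized log2 level of Sfrp4, of the 2 probes without a symbol most like it and of its neighbour Epdr1 on the 32 arrays, with mice in number order within each group and filled points for an S/N of at least 3. Sfrp4, mCG127219.1 and mCG1436.1 are all detected in mouse 6 of the vehicle-treated Pparg fl/- LysCre macrophages and in mouse 1 of the RSG-treated Pparg+/- LysCre iDCs. The probes without a symbol were picked for their likeness to Sfrp4 over these arrays.

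Only 154 of the compared probes carry a gene symbol, and among these Epdr1 (r = 0.59), Acyp2 (0.58), Lgals7 (0.54), Tceal9 (0.52) and Atox1 (0.50) were most like Sfrp4. Over the 28 arrays without vehicle-treated Pparg+/- LysCre macrophages these values dropped to 0.43, 0.24, 0.39, 0.25 and 0.06. Acyp2 is an acylphosphatase, Lgals7 a galectin and Atox1 a copper chaperone. With the group means taken out, r was 0.55 for Epdr1, 0.50 for Lgals7, 0.09 for Acyp2, 0.09 for Tceal9 and -0.31 for Atox1, again mostly over arrays that did not detect Sfrp4. Atox1 was detected on all 32 arrays and its group means ran from 17.27 to 18.99 (log2). The lowest r among named probes belonged to Vps25 (-0.58), a subunit of the endosomal ESCRT-II complex, H2-Q7 (-0.56), a nonclassical MHC class I gene, and the homeobox gene Gbx1 (-0.55). For Vps25 r was -0.14 with median scaling of the arrays.

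Epdr1, which encodes an ependymin-related lysosomal protein, is also the gene next to Sfrp4 in the RefSeq table, and the only one of 30 genes within 500 kb with a named probe. In vehicle-treated Pparg+/- LysCre macrophages its signal was 775, 1479, 450 and 718 in mice 1 to 4, and with RSG it was 438, 405, 252 and 275. Every RSG value was below every vehicle value, and all 8 arrays detected it. Epdr1 fell by 1.34 on the log2 scale with RSG (limma, adjusted p = 0.0354), in a comparison in which 1.2% of the 16620 tested probes were called (adjusted p below 0.05 with 1.5-fold or more). The adjusted p ran from 0.00405 to 0.173 over the alternatives, and leaving out any one of mice 1, 2, 3 and 4 (0.0805 to 0.173) or mouse 7 (0.0687) or 8 (0.0607) ended the call. So did testing probes without the detection filter (0.102), fitting only the groups compared (0.0669) and the methods' t-test (0.116). With the mouse as a block limma gave 0.00405.

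In vehicle-treated Pparg fl/- LysCre macrophages the Epdr1 signal was 634, 1956, 969 and 874 in mice 5 to 8, and its log2 level of 9.92 ± 0.47 was close to the 9.75 ± 0.59 of Pparg+/- LysCre macrophages (SD, n = 4 each, limma adjusted p = 0.764). Without mouse 5 the Epdr1 difference was 0.35 (limma, adjusted p = 0.459). The difference of Epdr1 between RSG and vehicle in Pparg fl/- LysCre macrophages was -0.80 and did not pass (limma, adjusted p = 1.00, and 0.258 with the mouse as a block). Epdr1 was detected on 3 of the 4 RSG arrays there. Within each mouse it was lower in 4 of 4, from -1.01 to -0.50, in a comparison with 0% of probes called. At an unadjusted p below 0.05 that comparison held 497 probes by limma, and the block of the mouse gave 5 calls. Epdr1 was lower in vehicle-treated iDCs than in macrophages, with a difference of -2.11 (limma, adjusted p = 0.000125) in Pparg+/- LysCre and of -1.57 (limma, adjusted p = 0.00291) in Pparg fl/- LysCre cells, where 28.9% and 27.6% of all probes were called. Epdr1 was detected on all 4 macrophage arrays of either genotype, but on 1 of 4 iDC arrays in Pparg+/- LysCre and 2 of 4 in Pparg fl/- LysCre cells, so the sizes of these differences rest in part on undetected values. Without mouse 6 the difference in Pparg fl/- LysCre cells was -1.24 with an adjusted p of 0.0532 (limma), and the methods' t-test gave 0.0682 for it, so both ended the call.

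Of 181 other genes listed for the Wnt pathway, 3 had a named probe and all 3 were tested, so the ligands and receptors that Sfrp4 would meet were not analysed here. The 3 were Notum, a secreted enzyme that inactivates Wnt ligands, Frat2, which binds the kinase GSK3 in the β-catenin pathway, and Jun, a transcription factor and Wnt target gene. None of the 3 was called for RSG in Pparg+/- LysCre macrophages (limma, 1.2% of all probes called), and none by the methods' t-test after adjustment (likewise 1.2%). At an unadjusted p below 0.05 there were 2 of the 3 by limma (11.7% of all probes), and 0 without mouse 1 (8.25%) or mouse 3 (9.09%). Notum, like Sfrp4 a secreted antagonist, had signals of 339, 497, 716 and 527 with vehicle and 190, 452, 352 and 269 with RSG in mice 1 to 4. It was detected on all 4 vehicle arrays and on 2 of the 4 RSG arrays. Its difference of -0.89 (log2) was below 0 in 4 of 4 mice (-1.49 to -0.20), the groups overlapped, and limma gave an adjusted p of 0.324, or 0.139 with the mouse as a block. Jun differed by -0.27 (limma, adjusted p = 0.417) and Frat2, detected on 2 of 4 vehicle and 3 of 4 RSG arrays, by 0.12 (limma, adjusted p = 0.969). Leaving out 1 mouse at a time, the Frat2 difference ran from -0.38 to 0.85, so its direction is not settled.

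None of the 3 Wnt genes was called by limma for RSG in Pparg fl/- LysCre macrophages (0% of all probes), Pparg+/- LysCre iDCs (6.01%) or Pparg fl/- LysCre iDCs (0.692%), or between genotypes in vehicle-treated macrophages (0.156%) or iDCs (2.83%). At an unadjusted p below 0.05 limma gave 0 of the 3 in these 5 comparisons, against 2.99%, 21.5%, 10.9%, 23.4% and 22.7% of all probes in the same order. The methods' t-test called 0 of the 3 after adjustment, against 0%, 5.88%, 0%, 0.0241% and 0.168% of all probes. The unadjusted count was not 0 at every setting. For RSG in Pparg fl/- LysCre iDCs it was 2 of 3 with the mouse as a block (15.9% of all probes), 1 with the scan day as a block (11.7%) and 1 without mouse 5 (10.7%). Between genotypes it was 1 in vehicle-treated macrophages without mouse 4 (19.0%) and 1 in vehicle-treated iDCs without mouse 5 (31.5%). Between genotypes in vehicle-treated macrophages Notum differed by 0.24, Jun by 0.08 and Frat2 by 0.63 (log2, limma adjusted p = 0.738, 0.740 and 0.447). Without mouse 5 these were 0.25, 0.16 and 0.73, and none was called (limma, adjusted p = 0.680, 0.401 and 0.380), while 15% of all probes were called at that setting. Frat2 was detected on 2 of the 4 Pparg+/- LysCre arrays and on all 4 of Pparg fl/- LysCre in this comparison, so its values rest in part on undetected arrays. Without mouse 5, 1 of the 3 was called between genotypes in vehicle-treated iDCs, Notum at 0.79 (limma, adjusted p = 0.0116), and 12.2% of all probes were called at that setting.

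Jun was the 1 of 3 Wnt genes called between the cell types, where 28.9% of all probes were called in Pparg+/- LysCre and 27.6% in Pparg fl/- LysCre cells, so the count is near that of all probes. It was lower in vehicle-treated iDCs, with a difference of -1.08 in Pparg+/- LysCre cells (limma, adjusted p = 9.95e-08) and of -1.39 in Pparg fl/- LysCre cells (limma, adjusted p = 1.18e-09). Notum was detected on all 4 arrays of vehicle-treated iDCs of either genotype, on which Sfrp4 was not detected. Its differences between the cell types, 0.21 and 0.50, did not pass (limma, adjusted p = 0.735 and 0.371). Frat2 was detected on 1 of 4 arrays of vehicle-treated Pparg fl/- LysCre iDCs, that of mouse 6 (S/N 5.73). Without mouse 6 it was called there (limma, adjusted p = 0.0306), with 24.6% of all probes called at that setting. The values of macrophages were then 3.11-fold higher. No remaining iDC array detected Frat2, so the size of this difference rests on undetected values and is not a lower limit.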

How the data were processed

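The authors deposited, per array, a background-corrected signal for each probe, its S/N score, an assay-normalized signal and flags, and a table of ratios (each signal over an array's factor and the probe's median). No Sfrp4 spot had a flag above 1. Signals were taken to log2 and quantile normalized over 32 arrays. The 16620 probes with an S/N of at least 3 on at least 3 of 4 arrays of a group were fitted with limma 3.58.1 (R 4.3.3), using the 16 arrays of a cell type, or all 32 across cell types, and a call needed 1.5-fold and 0.05 after Benjamini-Hochberg adjustment. Ratios over undetected arrays took each such array at the higher of its own value and the lowest detected signal of any probe on it. For the ratios given this was always its own value, so they set no lower limit. The fit was tested on simulated data. Of all probes, 311 (0.942%) have a symbol through RefSeq accessions (assembly GRCm38.p6), so Sfrp4's position is not given. Named genes were Sfrp4, the listed Wnt genes, genes within 500 kb, the 5 probes with and 2 without a symbol of highest r, and the 3 of lowest r. The gene and the lists were chosen with earlier results of these data known. Arrays of a mouse and cell type deviated together (median r 0.284, lowest 0.00953, against -0.0204 between mice), so the mouse was a block in an alternative. The methods in the paper describe other arrays. The number of arrays limits the precision. Alternatives were other scalings, the ratios, filters, thresholds, the methods' t-test, blocks and leaving out mice. The assay-normalized signal was added after the data were seen.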

Additional observations from a re-analysis of the deposited data

Results flagged for a closer look

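Of 64 sets of 4 mice examined (the levels of Sfrp4, Epdr1, Notum, Frat2, Jun, Ear1 and Hba-a1 in each group and the within-mouse differences of Sfrp4), 6 had 1 mouse distant from the rest, which by chance alone happens in about 1 set of 20. No set of Sfrp4 values was among them. The gap of that mouse over the whole range was 0.916 for Frat2 in RSG-treated Pparg+/- LysCre iDCs, where mouse 2 was low, and 0.836 for Notum in RSG-treated Pparg fl/- LysCre iDCs, where mouse 5 was low. For Ear1 it was 0.839, with mouse 3 high among Pparg+/- LysCre macrophages given RSG. For Hba-a1 mouse 5 was low each time, with 0.886 in vehicle-treated and 0.915 in RSG-treated macrophages and 0.833 in RSG-treated iDCs of Pparg fl/- LysCre mice.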

How the results depend on the processing

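The lower Sfrp4 level with RSG in Pparg+/- LysCre macrophages stayed between -3.58 and -2.78 (log2) under each scaling and each left-out mouse that was tried, the one of Pparg fl/- LysCre compared with Pparg+/- LysCre vehicle-treated macrophages between -4.06 and -2.86, and the one of iDCs compared with macrophages in vehicle-treated Pparg+/- LysCre cells between -4.39 and -3.24. Of the Sfrp4 differences and levels, 3 values moved by more than the spread between mice, all by keeping detected arrays only: the genotype difference in vehicle-treated macrophages (-1.74), and the levels in RSG-treated Pparg+/- LysCre iDCs (9.62) and vehicle-treated Pparg fl/- LysCre macrophages (9.48), which then rest on 1 array. That setting gave no value for the other Sfrp4 differences, for want of detected arrays on one side or, for RSG in Pparg fl/- LysCre macrophages, of a mouse detected on both. Leaving out a mouse, the number of Wnt genes called ranged from 0 to 1 between genotypes in vehicle-treated iDCs (12.2% of all probes called without mouse 5) and from 1 to 2 between cell types in Pparg fl/- LysCre cells (24.6% without mouse 6). With the mouse as a replicate block the Sfrp4 RSG difference in Pparg+/- LysCre macrophages is by construction the same -3.18, and the Wnt counts were 0 and, between cell types, 1, as without it. The block changed no call of Epdr1, Notum, Frat2 or Jun. For RSG the probes called numbered 494 with the block and 199 without it in Pparg+/- LysCre macrophages, 5 and 0 in those of Pparg fl/- LysCre mice, and 202 and 115 in Pparg fl/- LysCre iDCs. Between genotypes in vehicle-treated macrophages they numbered 341 and 26. Over all alternatives these numbers ran from 50 to 861, 0 to 207, 0 to 538 and 0 to 2488, the last without mouse 5. In Pparg+/- LysCre iDCs the RSG calls ran from 573 to 1764, those between genotypes in iDCs from 28 to 2029, and those between cell types from 2963 to 6765 and 2867 to 6511. With median scaling 46 probes rose and 143 fell with RSG in Pparg+/- LysCre macrophages, against 95 and 104. The cause of these shifts was not tested. Sfrp4 signals near background limit every comparison without vehicle-treated Pparg+/- LysCre macrophages.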
